A study of Sus scrofa with 26 samples.

Results

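The genes described here are 10 genes commonly used as markers of macrophages, PLA2G7, CD68, CD163, CD14, CSF1R, C1QA, C1QB, AIF1, MRC1 and MSR1, measured in the subcutaneous adipose tissue (SCAT) of growing pigs. Their probes were all the spots of a porcine expression array, other than control spots, that the scanner files assign to one of these genes in the columns for gene name, accessions or description. Spots that carry an accession only in their probe name have no entry in those columns and were not taken. The rule found 31 probes of 60305, for 10 of the 11573 genes named on the array, and 30 of the 31 passed the filter on dim probes, as did at least 1 probe of each gene.

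Each of the 26 arrays held the RNA of 1 pig, a castrated male of the Creole breed, the Large White (LW) breed or the F1 cross of LW and Creole. Thermoneutral (TN) pigs were kept at 24 °C, and heat-stressed (HS) pigs were sampled after the room had been warmed, to 30 °C by the sample titles and 32 °C by the series text. The labels give the warm phase as 5 days, and by the study's methods a pig had 4 or 5 days of it. The groups held 3 Creole, 4 F1 and 4 LW pigs in TN and 5 pigs of each breed in HS, and all entered the climatic room at 11 weeks of age. TN pigs were slaughtered before the temperature rise and HS pigs after it, and the paper reports a lower feed intake in heat. Temperature, feed intake, slaughter day and age therefore cannot be told apart. By the study's methods the pigs of a pen were slaughtered at the same temperature, and pigs came from blocks of littermates.

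Macrophages are resident immune cells of adipose tissue that clear dying cells, debris and lipid. They depend on the growth factor receptor CSF1R, recognise bound ligands through scavenger receptors such as CD163, MRC1 and MSR1, and in many tissues are the main source of the complement component C1q. PLA2G7, also called lipoprotein-associated phospholipase A2 or plasma platelet-activating factor acetylhydrolase, is an enzyme that macrophages secrete and that breaks down platelet-activating factor and oxidised phospholipids. In whole tissue, fewer macrophages, less RNA of a gene per macrophage and less of its RNA in other cells cannot be told apart.

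Between 68.5% and 76.6% of spots were well above background on each array and none was saturated. Over all tested probes, the median Pearson r of an array with the other arrays of its group was 0.982 for Creole HS replicate 3 and between 0.987 and 0.992 for the other 25. Without that array the share of all probes called between HS and TN was 14.7% in place of 12.2%, and within Creole pigs 205 probes were called in place of 32. That Creole count ran from 0 to 205 when each of the 26 pigs was left out in turn, so it is not stable to single pigs. For the 10 genes described here, the PLA2G7 difference between HS and TN was then -0.44, with all 6 of its probes called, none of the probes of the other genes was called within Creole pigs, and the median Creole difference of the 9 other genes was 0.57 in place of 0.56, with 8 in place of 9 positive. All 7 adipocyte markers of the list were well above background on every array, as were 5 of 5 tested skeletal muscle markers, whose summed linear level ran from 25586 to 335636 across arrays. All 10 macrophage genes had a lead probe, the tested probe with the highest mean level, that was well above background on all 26 arrays. A second MSR1 probe, O11993, was well above background on none.

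PLA2G7 was covered by 6 probes, and because the results turn on them the sequences of 4 are given, 5′ to 3′ as in the array files. The capitals mark a pair of runs of 15 bases each that A_72_P581717 and A_72_P165611 share, apart from 1 more base between the runs in A_72_P165611, so those probes are not independent. The lead probe O10541 carries the same 60 bases as A_72_P165611 on another spot, and A_72_P290434 is the sixth.
A_72_P539508: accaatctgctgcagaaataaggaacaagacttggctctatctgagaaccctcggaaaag
A_72_P675068: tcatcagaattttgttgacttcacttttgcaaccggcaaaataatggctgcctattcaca
A_72_P581717: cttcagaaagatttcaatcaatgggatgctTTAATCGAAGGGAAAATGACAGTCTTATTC
A_72_P165611: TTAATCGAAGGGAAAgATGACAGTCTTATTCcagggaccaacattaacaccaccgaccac

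PLA2G7 fell in HS pigs. Its lead probe had a mean log2 level of 12.75 in the 11 TN pigs (SD 0.30) against 12.32 in the 15 HS pigs (SD 0.39), and with breed in the model HS pigs were at 74.3% of the TN level. All 6 PLA2G7 probes passed the test in this direction, against 12.2% of all 44703 tested probes called in either direction. None of the 24 tested probes of the 9 other genes was called by limma. At an unadjusted p under 0.05 there were 2 higher and 1 lower, beside 26.9% of all tested probes. Of those 9 genes 8 had a lead probe with a positive difference (median 0.15).

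In TN, the 4 F1 pigs had log2 levels of the PLA2G7 lead probe of 12.47, 13.01, 13.20 and 13.24. The 4 LW pigs in TN had 12.40, 12.53, 12.67 and 12.85, and the 3 Creole pigs had 12.52, 12.52 and 12.80. The lowest TN pig was the LW pig at 12.40. In HS, the 5 F1 pigs had 12.22, 12.37, 12.42, 12.80 and 12.84. The 5 Creole pigs in HS had 11.86, 12.39, 12.43, 12.53 and 12.92, and the 5 LW pigs had 11.61, 11.71, 12.12, 12.18 and 12.38. TN and HS overlapped within F1 and within Creole, whereas in LW every HS pig was below every TN pig. In all, 14 of 15 HS pigs were below the TN mean of their own breed.

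**Figure D1:**
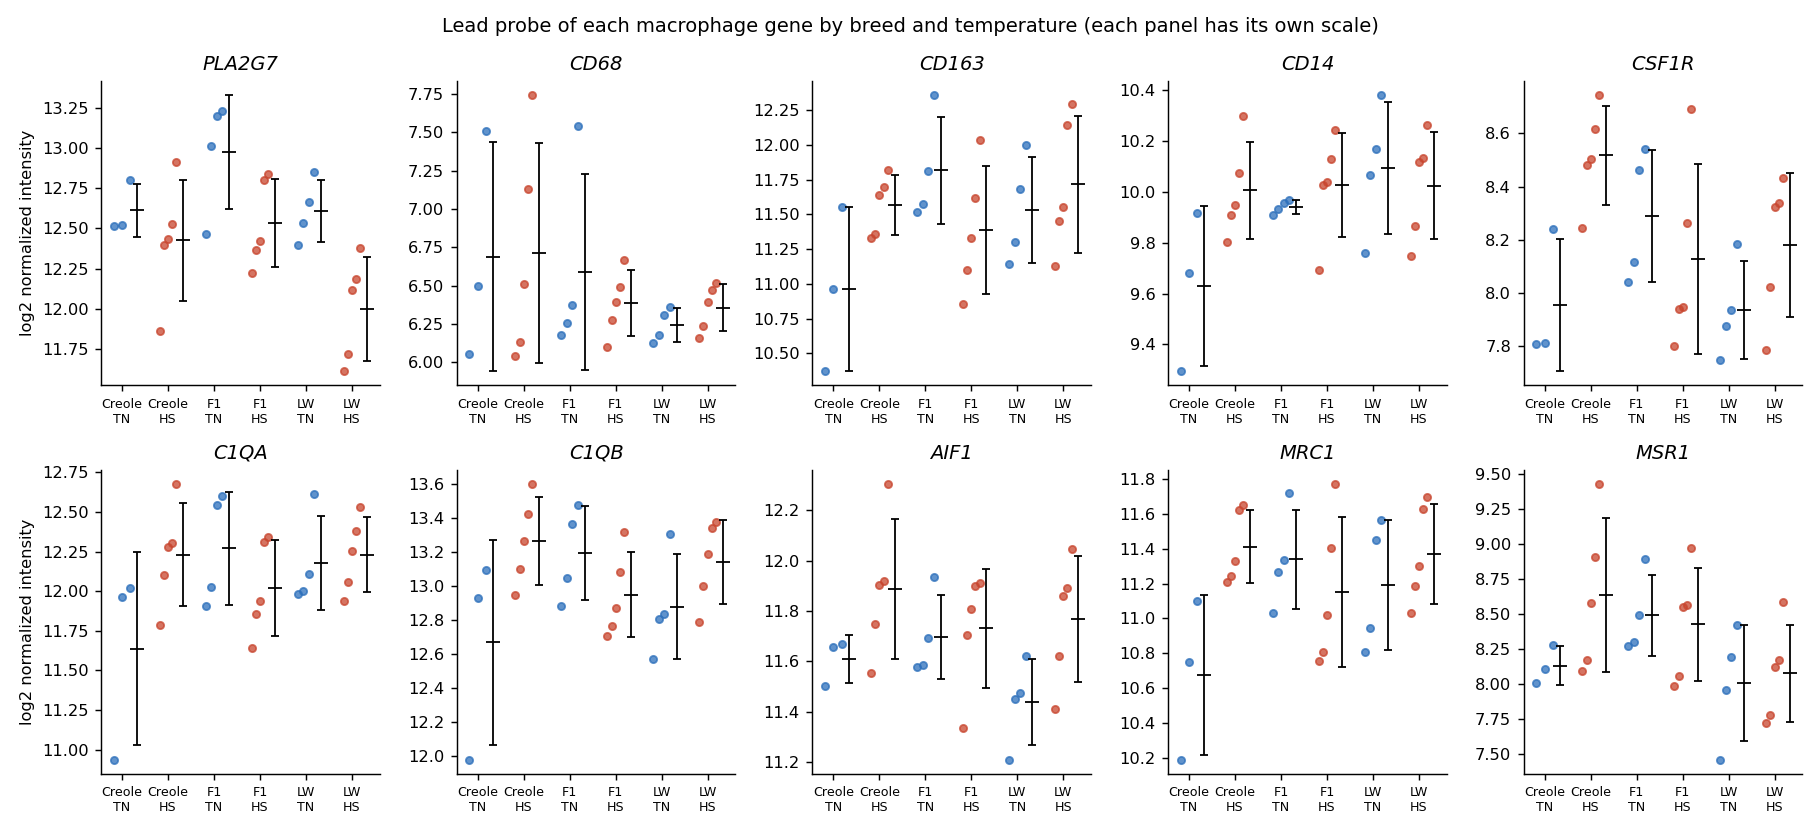
Log2 normalized intensity of the lead probe of each gene in each of the 26 pigs, by breed and temperature (blue, TN; red, HS), with the group mean and SD in black. PLA2G7 has its lowest group mean in LW HS pigs, 0.43 below the next group, while the Creole TN group has the lowest mean for CD163, CD14, C1QA, C1QB and MRC1 (for C1QB only with Creole TN replicate 2).

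Ordered by group mean, PLA2G7 was highest in F1 TN pigs (12.98 ± 0.35, SD, n = 4), followed by Creole TN (12.61 ± 0.17, n = 3), LW TN (12.61 ± 0.19, n = 4), F1 HS (12.53 ± 0.27, n = 5) and Creole HS pigs (12.43 ± 0.38, n = 5), and lowest in LW HS pigs (SD 0.32, n = 5). The steps between the 4 middle groups were at most 0.11, below the SD of the groups. Only the step down from F1 TN, 0.37, and the step down to LW HS, 0.43, were larger than the SD of both neighbours.

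By limma, with Benjamini-Hochberg adjustment over all tested probes, the log2 difference HS minus TN of the lead probe was -0.43 (SE 0.11, adjusted p = 0.0157). The sequence twin A_72_P165611 gave -0.42 (adjusted p = 0.0141), and the other 4 probes gave -0.46 for A_72_P675068, -0.47 for A_72_P539508, -0.49 for A_72_P581717 and -0.51 for A_72_P290434, with adjusted p-values from 0.00798 to 0.0304. A_72_P581717 alone of the 6 lost its call when some pigs were left out, namely Creole TN replicate 3, F1 TN replicates 1 or 3, or LW TN replicates 2 or 3 (adjusted p from 0.0503 to 0.061). Across pigs, the deviations of the 6 probes from their group means correlated with each other at a Pearson r between 0.83 and 0.95, as a description over 26 arrays. The twin spots differed by a constant 0.50 with an SD of 0.09 between arrays, which covers the noise between spots of 1 array and not that of RNA preparation, labelling or hybridisation. A further spot with the sequence of A_72_P290434, outside the rule because only its probe name holds an accession, gave -0.49 (adjusted p = 0.00902). Spots of the same kind with the sequences of the CD163 and CD14 lead probes gave 0.10 and 0.12. An exact permutation of pigs within breeds gave the lead probe a two-sided p of 0.00225.

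**Figure D2:**
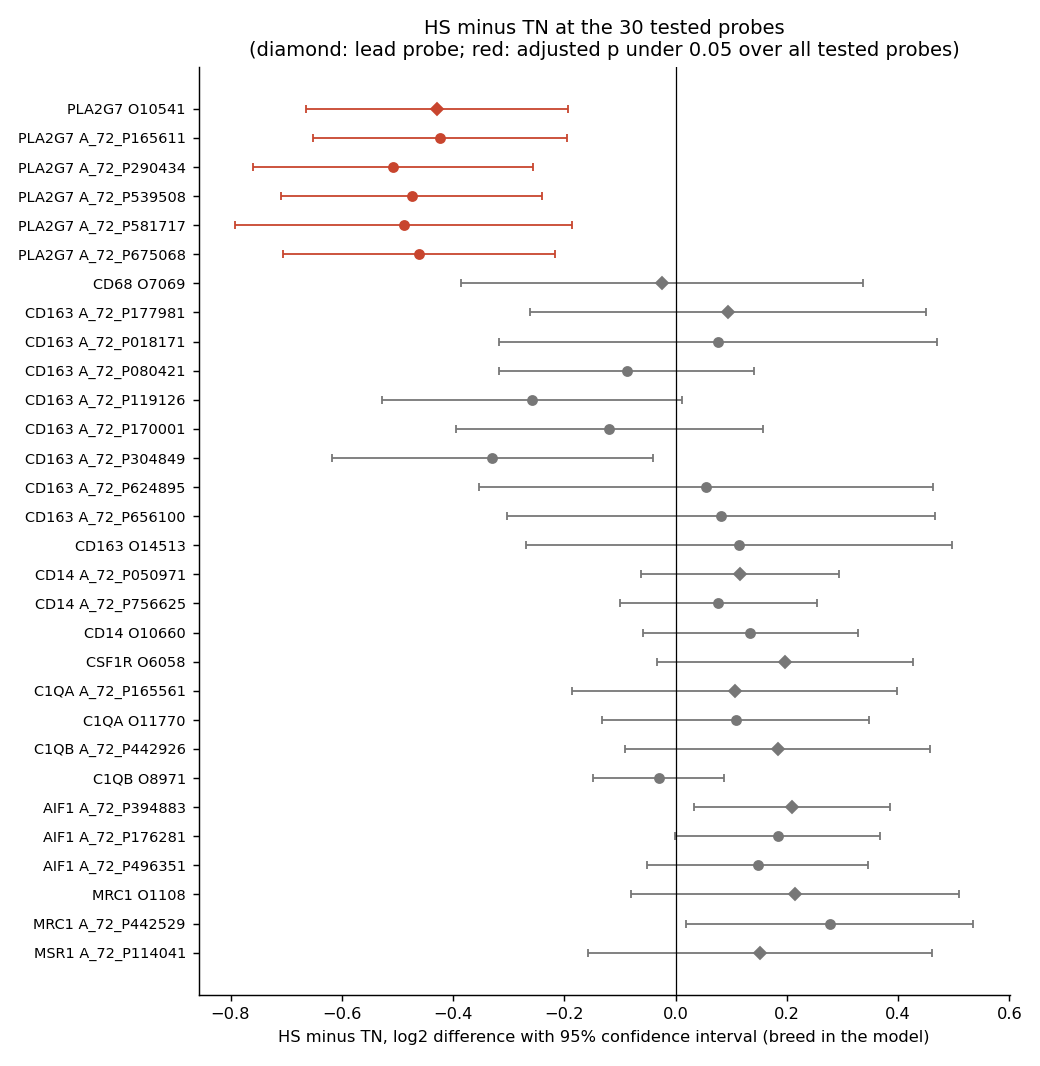
Log2 difference HS minus TN of the 30 tested probes with 95% confidence intervals, breed in the model (diamonds, lead probes; red, adjusted p under the threshold). The 6 PLA2G7 probes lie between -0.51 and -0.42, and the lead probes of the 9 other genes between -0.02 and 0.21.

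Within slides, which held both TN and HS pigs, the PLA2G7 lead probe was lower in HS on each of the 5, with log2 differences of -0.84, -0.68, -0.56, -0.07 and -0.42. These within-slide values do not correct for breed. They rest on 1 to 3 TN pigs per slide, with 1 TN pig for the value of -0.84. Of 4 tested red blood cell markers 1 was called, beside 12.6% of the lead probes of all named genes. HBB, the beta chain of haemoglobin, fell by 0.85 (SE 0.21, adjusted p = 0.0110), and AHSP, a chaperone of the alpha chain, was at -0.47 (adjusted p = 0.0521), while SLC4A1 and ALAS2 were at 0.06 and 0.04. The score of these 4 markers, their mean deviation on the log2 scale, averaged 0.18 in TN pigs (SD 0.20) and -0.13 in HS pigs (SD 0.29), and their summed linear level ran from 5426 to 7154 in TN and from 4633 to 8155 in HS. With this score as a covariate the PLA2G7 difference was -0.37 (SE 0.14) and no longer passed (adjusted p = 0.133), none of the 6 probes was called, and the share of all probes called dropped from 12.2% to 2.96%.

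Among the scavenger receptors, CD163, which takes up haemoglobin bound to haptoglobin, had 9 tested probes. The sequences of 2 are shown, the first because A_72_P018171 repeats it on another spot and the second because it had the widest difference between F1 and Creole pigs among the probes of CD163 (0.54, adjusted p = 0.418).
A_72_P624895: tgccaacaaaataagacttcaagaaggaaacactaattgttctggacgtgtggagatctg
A_72_P656100: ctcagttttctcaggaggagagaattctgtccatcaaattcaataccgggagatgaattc

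The CD163 lead probe, A_72_P177981, ranged from 10.37 to 12.36 with a median of 11.56 in TN and from 10.85 to 12.30 with a median of 11.55 in HS. The groups overlapped over nearly their whole range, and the difference was 0.09 (95% interval -0.26 to 0.45, adjusted p = 0.775). A_72_P624895 gave 0.05 and A_72_P656100 gave 0.08. The 3 probes that reached CD163 through the description column were all negative, with -0.33 for A_72_P304849 (adjusted p = 0.126), -0.26 for A_72_P119126 (adjusted p = 0.208) and -0.09 for A_72_P080421, and A_72_P170001 was at -0.12. The probes of CD163 therefore did not share a sign. They still varied together across pigs, with an r with the lead probe from 0.67 for A_72_P119126 to 0.96 for O14513.

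MRC1, the mannose receptor, ranged from 10.19 to 11.72 with a median of 11.10 in TN and from 10.76 to 11.78 with a median of 11.30 in HS. Its difference was 0.21 at the lead probe O1108 (95% interval -0.08 to 0.51, adjusted p = 0.354) and 0.28 at A_72_P442529 (adjusted p = 0.151), and 10 of 15 HS pigs were above the TN mean of their breed at the lead probe. MSR1, a receptor for modified lipoproteins, ranged from 7.46 to 8.89 with a median of 8.27 in TN and from 7.72 to 9.43 with a median of 8.17 in HS, and differed by 0.15 (95% interval -0.16 to 0.46, adjusted p = 0.557). CD68, a glycoprotein of lysosomes and endosomes, differed by -0.02 (95% interval -0.39 to 0.34, adjusted p = 0.948). Its 15 HS pigs ranged from 6.04 to 7.75 and its 11 TN pigs from 6.06 to 7.54, and 9 of 15 HS pigs were below the TN mean of their breed.

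C1QA and C1QB encode chains of C1q, which starts the classical complement pathway. Among the 10 genes these chains followed each other most closely across pigs, so the lead probe of C1QB is shown.
A_72_P442926: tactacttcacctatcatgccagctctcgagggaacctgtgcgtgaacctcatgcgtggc

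C1QA ranged from 10.94 to 12.62 with a median of 12.02 in TN and from 11.64 to 12.68 with a median of 12.25 in HS, a difference of 0.11 (95% interval -0.19 to 0.40, adjusted p = 0.676). C1QB ranged from 11.98 to 13.48 with a median of 12.93 in TN and from 12.71 to 13.60 with a median of 13.10 in HS, a difference of 0.18 (95% interval -0.09 to 0.46, adjusted p = 0.400). For both genes 10 of 15 HS pigs were above the TN mean of their breed. A second C1QB probe, O8971, hardly followed the lead probe across pigs (r = 0.19), and its difference was -0.03 (adjusted p = 0.780). A second C1QA probe, O11770, followed its lead probe at r = 0.86 and gave 0.11. Which strand O8971, O11770 and the MSR1 probe O11993 read was not settled here, so their values may not be those of the transcripts, and the counts over 24 probes include O8971 and O11770.

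CSF1R, the receptor for the growth factors CSF1 and IL34, ranged from 7.75 to 8.54 with a median of 8.04 in TN and from 7.79 to 8.75 with a median of 8.32 in HS. It differed by 0.20 at its only probe under the rule (95% interval -0.03 to 0.43, adjusted p = 0.269). A probe outside the rule, which the supplementary annotation places in CSF1R and which was well above background on all 26 arrays, gave 0.08 (adjusted p = 0.557), and 0.23 within Creole pigs. It followed the CSF1R lead probe at r = 0.69. CD14, a co-receptor for bacterial lipopolysaccharide, ranged from 9.29 to 10.38 with a median of 9.93 in TN and from 9.69 to 10.30 with a median of 10.04 in HS, and differed by 0.12 at the lead probe (95% interval -0.06 to 0.29, adjusted p = 0.415), and by 0.13 and 0.08 at the other probes. For CD14, 12 of 15 HS pigs were above the TN mean of their breed. The interval of CSF1R and that of CD14 both included 0, so neither a rise nor the absence of one was shown.

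AIF1, a calcium-binding protein that macrophages use in ruffling of their membrane and phagocytosis, came nearest to a call among the 9 other genes. Its lead probe A_72_P394883 ranged from 11.21 to 11.93 with a median of 11.59 in TN and from 11.33 to 12.31 with a median of 11.86 in HS. The groups overlapped, 12 of 15 HS pigs were above the TN mean of their breed, and the difference of 0.21 (95% interval 0.03 to 0.38) did not pass over all probes (adjusted p = 0.111). Of the 26 fits that each left out 1 pig, it passed in the one without F1 HS replicate 2 (0.25, adjusted p = 0.0439). The other probes gave 0.18 for A_72_P176281 and 0.15 for A_72_P496351. These share 57 of their 60 bases, of which the second is shown.
A_72_P496351: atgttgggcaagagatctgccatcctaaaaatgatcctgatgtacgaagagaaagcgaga

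Whether PLA2G7 changed differently from the other genes was tested on the difference between the PLA2G7 lead probe and the lead probe of each other gene in the same array, a log2 ratio from which any scaling of the whole array drops out. The ratio was lower in HS against each of the 9 genes. This test was chosen after the values were seen. The log2 ratio to MRC1 differed by -0.64, with an exact permutation of pigs within breeds giving a two-sided p of 0.000747 (0.00134 after Benjamini-Hochberg adjustment over the 9 pairs). The ratio to AIF1 dropped by 0.64 (p = 3.6e-05, adjusted 0.000192) and that to CSF1R by 0.62 (p = 4.27e-05, adjusted 0.000192), both by exact permutation. Against CSF1R, C1QB, AIF1, MRC1 and MSR1 all 15 HS pigs were below the TN mean of their breed, and against CD14 and C1QA 14 of 15 were.

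The ratios to C1QB, MSR1, CD14 and C1QA dropped by 0.61, 0.58, 0.54 and 0.54 on the log2 scale, with adjusted exact permutation p-values from 0.0008 to 0.00243. The smallest drops were against CD163, 0.52 (adjusted exact p = 0.0128, 12 of 15 HS pigs), and CD68, 0.40 (adjusted exact p = 0.0395, 13 of 15). The ratio to CD68 did not pass in 12 of the 26 tests that each left out 1 pig, nor with processed in place of median intensities, scaled to the 75th percentile (-0.52, adjusted exact p = 0.066). All 9 pairs share the PLA2G7 values and are not independent of each other. In F1 pigs the ratio to CD163 moved by only -0.02, against -0.79 in Creole and -0.80 in LW pigs, and this difference between breeds was not tested.

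**Figure D3:**
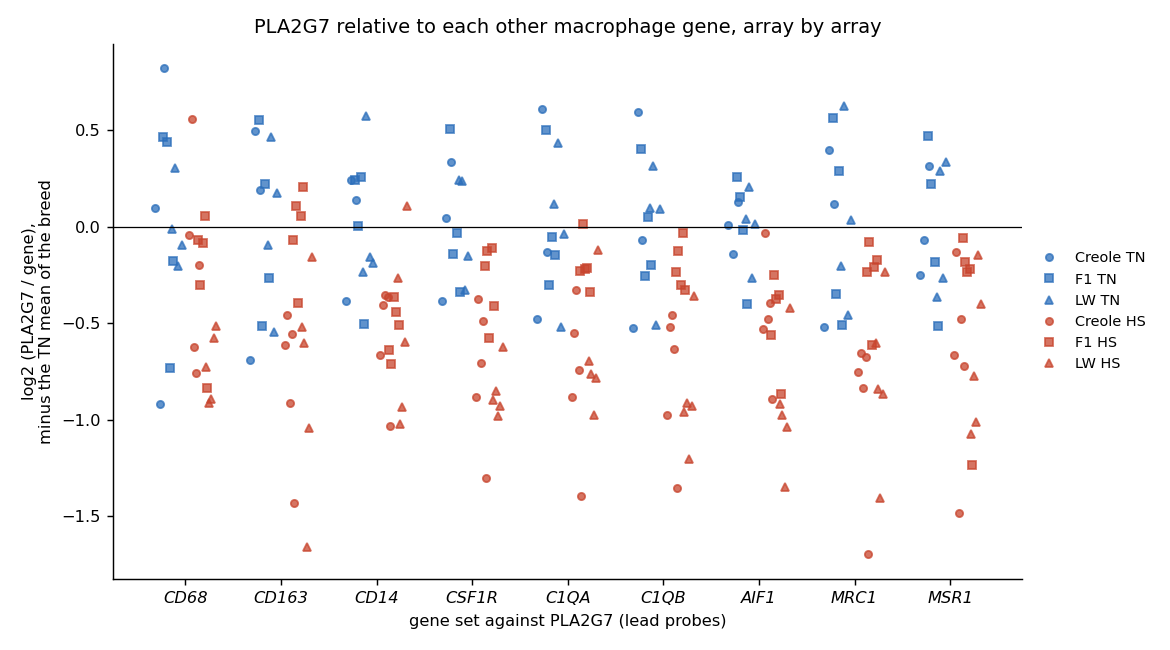
Log2 ratio of PLA2G7 to each of the 9 other genes in every pig, relative to the TN mean of its breed (blue, TN; red, HS; symbols, breeds). All 15 HS pigs are below 0 for CSF1R, C1QB, AIF1, MRC1 and MSR1.

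Within breeds, the difference HS minus TN of the PLA2G7 lead probe was -0.61 (SE 0.19, adjusted p = 0.101) in LW, -0.45 (SE 0.19, adjusted p = 0.252) in F1 and -0.19 (SE 0.21, adjusted p = 0.807) in Creole pigs. In LW pigs 1 of the 6 PLA2G7 probes was called, A_72_P675068 with -0.75 (adjusted p = 0.0442), against 1.5% of all tested probes. It was no longer called in 14 of the 26 fits that each left out 1 pig, nor with slide as a block (adjusted p = 0.0828), normexp background correction (0.0511), no filter on dim probes (0.0578) or the red blood cell score as a covariate (0.260). No member probe was called by limma within F1 or within Creole pigs, where 0.421% and 0.0716% of all tested probes were (in Creole from 0% to 0.459% when each pig was left out). At an unadjusted p under 0.05 there were 8 of 30 member probes in F1, of PLA2G7 and CD163 and all lower in HS, and 10 of 30 in Creole, none of PLA2G7 and all higher in HS, beside 16.0% and 11.1% of all tested probes. Without Creole TN replicate 2, 1 of the 10 lead probes, CSF1R, had such a p in Creole pigs in place of 6. Within LW pigs all 5 tested skeletal muscle markers had a positive difference, with a median of 1.75. Of these, 2 had an unadjusted p under 0.05 and none was called (smallest adjusted p = 0.178). Their summed level ran from 25586 to 60687 in LW TN and from 41266 to 169421 in LW HS pigs, and their part in the LW results was not tested.

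The lead probes of the 9 other genes were higher in HS for all 9 in Creole pigs, for 8 in LW pigs, where CD14 was at -0.07, and for 2 in F1 pigs, CD14 at 0.08 and AIF1 at 0.03. In Creole pigs all 24 of their probes were higher in HS, and the median difference of their lead probes was 0.56, with 0.73 for MRC1, 0.61 for CD163, 0.60 for C1QB, 0.59 for C1QA and 0.56 for CSF1R. The 5 Creole HS pigs had MRC1 log2 levels of 11.21, 11.24, 11.33, 11.62 and 11.65, all above the 3 Creole TN pigs at 10.19, 10.75 and 11.10. In F1 pigs 21 of the 24 probes were lower in HS, with a lead median of -0.19 and a lowest value of -0.43 for CD163. For MRC1 the 5 F1 HS pigs, at 10.76, 10.81, 11.02, 11.41 and 11.78, overlapped the 4 F1 TN pigs, at 11.03, 11.27, 11.34 and 11.72. In LW pigs 16 of 24 were higher, with a lead median of 0.18. These counts are not of independent values, since 9 of the 24 probes are of CD163 and several of the genes varied together across pigs. All 6 fibroblast markers were higher in HS in each breed, with a median of 0.41 in Creole, 0.21 in F1 and 0.21 in LW pigs. Their part in these values was not tested. Over all 9967 named genes the median of the lead probes was -0.01 in Creole, -0.01 in F1 and 0.01 in LW pigs.

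The test of the difference between breeds called no member probe by limma, where 0.00224% of all tested probes, a single probe, passed. The smallest adjusted p of the 10 lead probes was 0.897, and 5 of the 10 had an unadjusted p under 0.05, beside 5.23% of all tested probes. The change in F1 minus the change in Creole was negative for all 10 lead probes, from -1.04 for CD163 to -0.23 for CD68, and none passed (smallest adjusted p = 0.895).

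The Creole values rested in part on 1 pig. Creole TN replicate 2 had the lowest mean of the 9 other genes over all 26 arrays, and was at 10.94 for C1QA, where the other Creole TN pigs were at 11.96 and 12.02, at 11.98 for C1QB (12.93 and 13.10), at 10.37 for CD163 (10.96 and 11.56) and at 10.19 for MRC1 (10.75 and 11.10). Without it the Creole lead median of the 9 genes was 0.31 in place of 0.56, with 0.49 for MRC1, 0.31 for CD163, 0.25 for C1QB, 0.24 for C1QA and 0.21 for CD14, while CD68 went from 0.02 to 0.44, and all 9 were still positive. The change in F1 minus the change in Creole was then still negative for all 10 lead probes, from -0.74 for CD163 to -0.12 for CD14, with CD68 at -0.64 and C1QA at -0.49 in place of -0.84. Of these, 2 in place of 5 had an unadjusted p under 0.05, CSF1R and MRC1. Its PLA2G7 level, 12.52, lay with the other Creole TN pigs, and the PLA2G7 difference over all breeds was -0.46 without it.

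**Figure D4:**
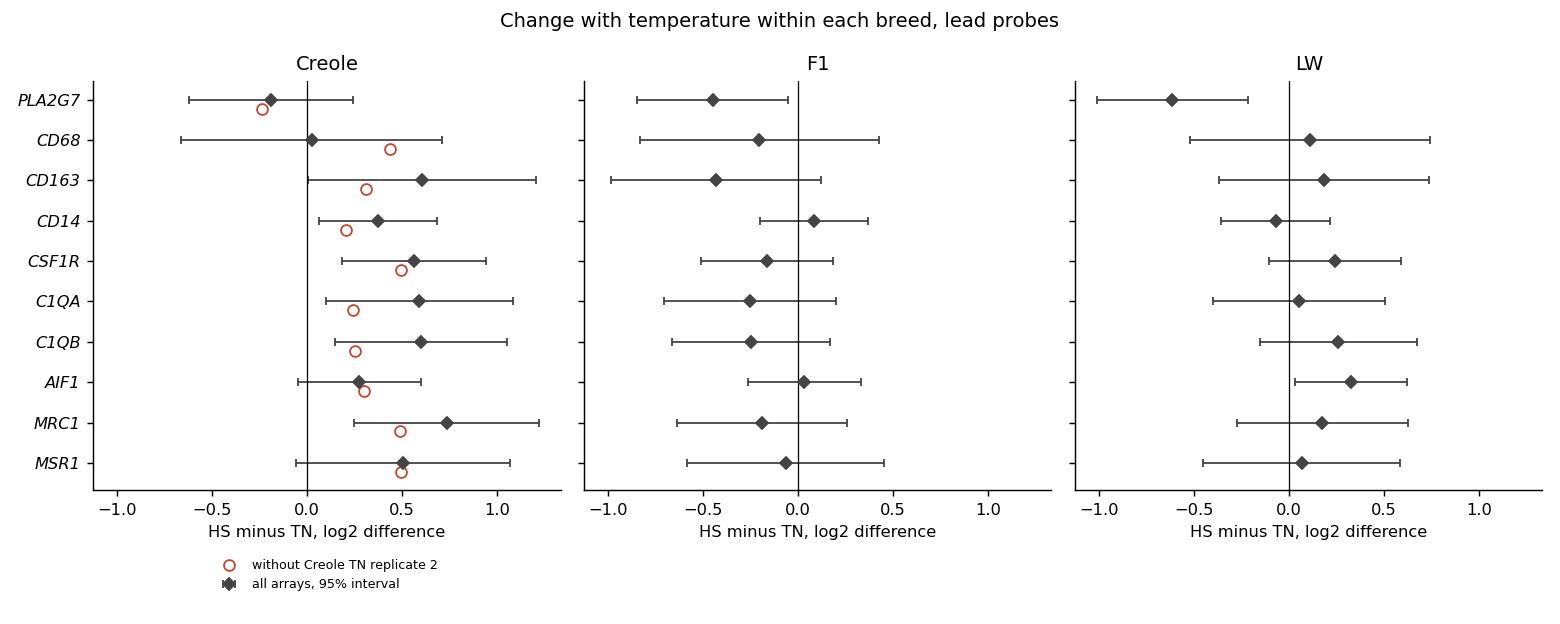
Log2 difference HS minus TN of the lead probes within each breed with 95% confidence intervals, and for Creole the values without Creole TN replicate 2 (red circles). PLA2G7 is negative in all 3 breeds, and the other genes are centred at 0.56 in Creole, -0.19 in F1 and 0.18 in LW pigs.

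In the comparison of F1 with LW, with temperature in the model, 2 of its 6 probes were called, against 4.22% of all tested probes, with 0.69 higher in F1 for A_72_P539508 (adjusted p = 0.00890) and 0.51 for A_72_P165611 (adjusted p = 0.0316), which was not called without F1 HS replicate 4, F1 TN replicates 1 or 3, LW HS replicates 2 or 3, or LW TN replicate 4 (adjusted p up to 0.0675), nor with slide as a block (0.44, adjusted p = 0.0983) or without the temperature term (adjusted p = 0.0949). The lead probe, the twin of the latter, was at 0.46 (SE 0.14) and missed the threshold (adjusted p = 0.0529). In LW against Creole 1 probe was called, A_72_P539508 at -0.41 (adjusted p = 0.0498), against 14.3% of all tested probes, and it was not called in 21 of 26 fits that left out 1 pig or under 5 of 11 other settings (adjusted p up to 0.181). The lead probe differed by -0.25 (adjusted p = 0.235). F1 and Creole differed at no member probe by limma, where 0.262% of all probes were called. At an unadjusted p under 0.05 there were 3 of 30 member probes, beside 9.75% of all tested probes.

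No probe of the 9 other genes was called in any of the 3 breed comparisons. The widest differences of lead probes were in LW against Creole, with -0.40 for CD68 (adjusted p = 0.221), -0.39 for MSR1 (adjusted p = 0.158) and 0.30 for CD163 (adjusted p = 0.369, and 0.15 without Creole TN replicate 2), and in F1 against LW, with 0.41 for MSR1 (adjusted p = 0.185).

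To see whether pigs with more of one transcript had more of another, the deviations of each lead probe from the 6 group means were correlated over the 26 arrays, which share the normalization of each array. Among the 9 genes other than PLA2G7, C1QA and C1QB had the highest Pearson r, 0.97, followed by CD163 and MRC1 with 0.94. CD163, MRC1, C1QA and C1QB correlated with each other at 0.74 or more, and with CSF1R at 0.65 to 0.73. CD68 stood apart from these 4 (r from -0.09 to -0.01) and was nearest to MSR1 (0.61) and AIF1 (0.59). The median over these 36 pairs was 0.53.

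PLA2G7 had positive values with all 9 genes, with a median of 0.37, but no pair passed after adjustment over the 9 pairs. The highest was with AIF1 (r = 0.50, permutation p = 0.0303, adjusted 0.111; rho = 0.46, permutation p = 0.0426, adjusted 0.131), which was 0.49 without the 2 arrays farthest from the PLA2G7 median. CSF1R followed (r = 0.48, permutation p = 0.0253, adjusted 0.111; rho = 0.45, permutation p = 0.0436, adjusted 0.131; 0.52 without the 2 arrays), then C1QB (r = 0.41, permutation p = 0.0371, adjusted 0.111; rho = 0.42, permutation p = 0.0405, adjusted 0.131; 0.40 without them). The 6 others had an r from 0.15 with CD14 to 0.39 with C1QA, and an adjusted permutation p from 0.125 to 0.474. With the slide means also removed, r was 0.57 for CSF1R, 0.56 for AIF1, 0.53 for C1QA and 0.50 for C1QB. Their adjusted permutation p-values were from 0.0103 to 0.0142. That permutation moved pigs between slides and did not allow for the removed slide means. These p-values are therefore likely too small, and no pair is called from them. All 9 values of r stayed positive in 30 settings.

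**Figure D5:**
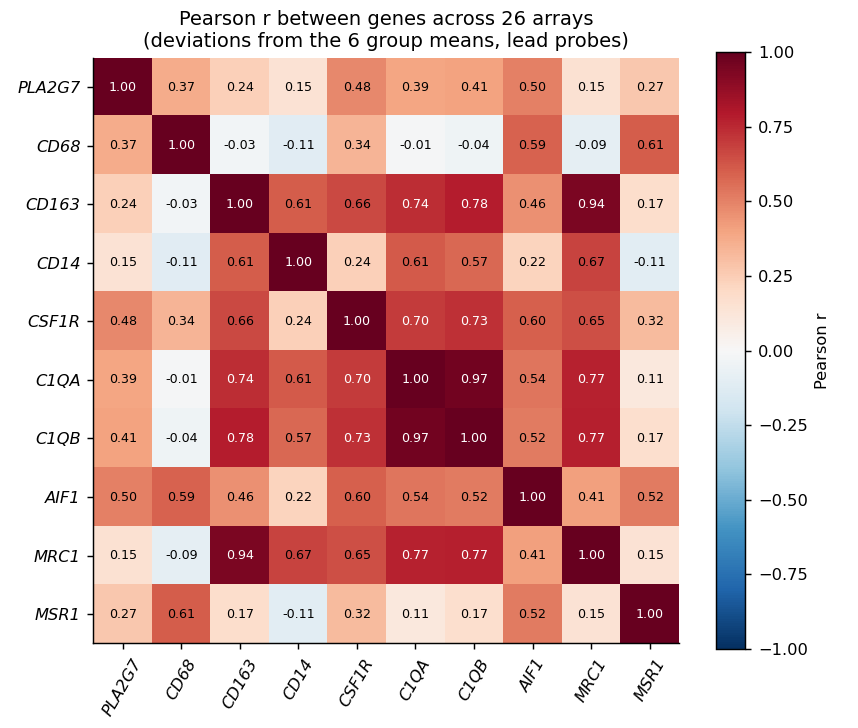
Pearson r between the lead probes of the 10 genes across 26 arrays, as deviations from the 6 group means. The C1QA, C1QB, CD163 and MRC1 block is at 0.74 or above, PLA2G7 is between 0.15 and 0.50 with every other gene, and CD68 is near 0 with that block.

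Of 9939 other named genes, those whose lead probe followed that of PLA2G7 most closely over the 26 arrays, as deviations from the group means, were CA3 (r = 0.75), a carbonic anhydrase, NMT1 (0.74), a myristoyltransferase, CSNK2A1 (0.70), a subunit of casein kinase 2, SDS (0.69), serine dehydratase, and ATP5H (0.68), a subunit of the mitochondrial ATP synthase. Among the macrophage genes AIF1 was the highest with 0.50, followed by CSF1R with 0.48. The middle 90% of all genes lay between -0.41 and 0.43, so both were above that range. With slide means also removed, CA3 was at 0.78, CSNK2A1 at 0.74, NMT1 at 0.73, ATP5H at 0.67 and SDS at 0.58, beside 0.57 for CSF1R. NMT1 fell in HS (-0.23, adjusted p = 0.0191), as did SDS (-0.49, adjusted p = 0.0413). CA3 was not called (0.33, adjusted p = 0.394).

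The partners of these genes were described from 7 further lists. Between HS and TN, 26.9% of all tested probes had an unadjusted p under 0.05. Of the genes that make or break down platelet-activating factor, the substrate of PLA2G7, none of 6 tested was called between HS and TN by limma (1 higher and 1 lower at an unadjusted p under 0.05), with a median of 0.01. The nearest were PAFAH1B3 (0.23, adjusted p = 0.0571) and PAFAH1B1 (-0.09, adjusted p = 0.150), subunits of the intracellular acetylhydrolase, and PAFAH2, another acetylhydrolase, was at 0.09 (adjusted p = 0.738). Of 8 genes of lipopolysaccharide and Toll-like receptor sensing none was called by limma or had an unadjusted p under 0.05, with MYD88, the adaptor of these receptors, at 0.09 (adjusted p = 0.361), LBP, which hands lipopolysaccharide to CD14, at -0.08 (adjusted p = 0.577) and IRAK4 at 0.07 (adjusted p = 0.627). Of 13 scavenger receptors and lysosomal enzymes none was called by limma (1 higher at an unadjusted p under 0.05), with VSIG4, a complement receptor, at 0.32 (adjusted p = 0.155), LYZ, lysozyme, at 0.44 (adjusted p = 0.348) and CTSD, cathepsin D, at 0.13 (adjusted p = 0.492).

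In other lists several genes rose, where 12.6% of the lead probes of all named genes were called. Of 5 tested C1q partners and complement receptors, C1R, a protease of the C1 complex, rose by 0.53 (SE 0.10, adjusted p = 0.00107), C3, the central complement protein, by 0.47 (adjusted p = 0.00661) and C5AR1, the receptor for C5a, by 0.50 (adjusted p = 0.0335). C1QC, the third C1q chain, named here for its role, was at 0.16 (adjusted p = 0.511). All 5 were positive, with a median of 0.47. Fibroblast markers moved in the same direction, with 6 of 6 positive, 3 called and a median of 0.28, and their part in these values was not tested. With the mean of all its probes C5AR1 was at 0.25 and not called (adjusted p = 0.119), nor was it called with processed intensities over the 75th percentile (adjusted p = 0.0603). Of 3 tested CSF1 ligands and macrophage lineage factors 2 were positive, with a median of 0.06, and 1 was called. IL34, a ligand of CSF1R, rose by 0.47 (adjusted p = 0.00130), and was called within LW pigs too (0.61, adjusted p = 0.0330), though not with slide as a block (adjusted p = 0.128) or the red blood cell score as a covariate (0.48, adjusted p = 0.276).

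Of 13 myeloid surface receptors and adaptors 11 were positive, with a median of 0.12, and 2 were called, a share near that of all named genes. PTPRC, the pan-leukocyte phosphatase CD45, rose by 0.28 (adjusted p = 0.0184) and FCGR2B, an inhibitory Fc receptor, by 0.26 (adjusted p = 0.0321). With the mean of all probes of a gene neither was called (0.12, adjusted p = 0.150, for PTPRC and 0.31, adjusted p = 0.302, for FCGR2B), and FCGR2B was not called with slide as a block (adjusted p = 0.0519). Of 7 genes of lipid-associated macrophages 6 were positive, with a median of 0.21, and CD9, a tetraspanin, rose by 0.56 (adjusted p = 0.00342) and SPP1, osteopontin, by 0.21 (adjusted p = 0.0367), though SPP1 was not called with the mean of all its probes (0.34, adjusted p = 0.415), processed intensities over the 75th percentile (adjusted p = 0.0796) or without the breed term (adjusted p = 0.136). With the red blood cell score as a covariate C3, C5AR1, PTPRC, FCGR2B and SPP1 were not called (adjusted p from 0.0533 to 0.177), at differences of 0.45, 0.45, 0.33, 0.24 and 0.21. None of the genes in the 7 lists was called lower in HS, and the median over the lead probes of all named genes was 0.00 to 2 decimals.

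Between breeds, 15.3% of the lead probes of all named genes were called in LW against Creole and 4.25% in F1 against LW. In LW against Creole the calls were 3 of 13 scavenger receptors and lysosomal enzymes and 1 of 13 myeloid receptors, all lower in LW, and 3 of 5 C1q partners and 1 of 7 genes of lipid-associated macrophages, all higher. In F1 against LW 1 gene each was called in the scavenger, C1q partner and lipid-associated lists. LIPA, the lysosomal acid lipase, was lower in LW than in Creole pigs (-0.62, adjusted p = 0.00142) and higher in F1 than in LW pigs by 0.45 (adjusted p = 0.0288, and 0.0621 with slide as a block). CX3CR1, the fractalkine receptor, was lower in LW than in Creole pigs (-0.60, adjusted p = 0.00525), as were SCARB1 (-0.27, adjusted p = 0.0332) and CD36 (-0.23, adjusted p = 0.0341), lipid receptors that adipocytes and other cells of this tissue also express. C1S, the partner protease of C1R (0.54, adjusted p = 0.00595), C1R (0.50, adjusted p = 0.00694), C3 (0.41, adjusted p = 0.0402) and SPP1 (0.30, adjusted p = 0.0148) were higher in LW than in Creole pigs. C1S and SPP1 were lower in F1 than in LW pigs (-0.47, adjusted p = 0.0318, and -0.29, adjusted p = 0.0402). Neither was called with slide as a block (adjusted p = 0.0846 for C1S and 0.103 for SPP1), with processed intensities scaled to the 75th percentile (0.0647 and 0.0554) or without the temperature term (0.0729 and 0.0995), and C1S was not called with the mean of all its probes (0.0850). In LW against Creole, slide as a block also ended the calls of C3 (adjusted p = 0.0795) and CD36 (0.0711). With the mean of all its probes SPP1 took the opposite sign in both comparisons (-0.33 and 0.17), and was not called. Fibroblast markers moved with these genes, FBLN1, DCN and COL1A1 being higher in LW than in Creole pigs (0.54, 0.41 and 0.34). Of the tested markers of other cells, 1 of 7 adipocyte markers and 2 of 3 mast cell markers were called lower in LW. Called higher were 1 mast cell marker, 1 of 6 endothelial and 1 of 4 B cell markers. The part of these markers in the result was not tested.

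Markers of other cells in the tissue were counted in the same way, beside 12.6% of the lead probes of all named genes called. Of 6 fibroblast markers 3 were called higher in HS and all 6 were positive, with a summed linear level from 257630 to 590323 in TN and from 424029 to 698399 in HS. Of 7 adipocyte markers 1 was called higher, of 6 endothelial markers 1 was called lower, of 3 tested mast cell markers 1 was called higher, and of 4 tested red blood cell markers 1 was called lower. None of 7 T cell, 4 B cell, 3 neutrophil, 2 dendritic cell and 5 skeletal muscle markers tested was called by limma. At an unadjusted p under 0.05 there were 1 B cell marker, higher, and 1 dendritic cell marker, lower, beside 26.9% of all tested probes. The summed level of the 10 macrophage genes ran from 18895 to 39349 in TN and from 22801 to 41022 in HS. The part of these cell markers in the PLA2G7 result was not tested beyond the red blood cell score.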

How the data were processed

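Subcutaneous adipose RNA of 26 pigs was hybridised in 1 colour, 1 pig per array, on porcine arrays of 60-base probes. The deposited scanner files hold pixel intensities that the authors extracted with Agilent Feature Extraction 10.10.1.1, not scaled between arrays. A deposited table of log2 values, which the authors read into R with limma and quantile-normalized with preprocessCore, served as an alternative. No genome build was used.

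Median intensities were quantile-normalized and put on the log2 scale after non-uniform spots were dropped, with a mean over the spots of one probe. A probe was tested if 8 arrays or more measured it well above background (44703 of 60305). Differences were tested in R 4.3.3 with limma 3.58.1 (lmFit, eBayes with an intensity trend), with breed or temperature as the other term, or as contrasts of the 6 group means. A call is a Benjamini-Hochberg adjusted p under 0.05, adjusted across every tested probe. The authors' random effects of pen, slaughter day and parents are not in the labels and were not used here. The p-values therefore treat pigs of a pen or litter as independent. Ratios were tested by exact permutation within breeds, and correlations by 100000 permutations within groups. The number of arrays limits the precision. Scripts were tested on simulated data, and figures drawn with matplotlib 3.10.9.

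Probes were named by the files, RefSeq accessions or symbols, and 20939 tested probes had a name (9967 genes). A gene's lead probe is its tested probe with the highest mean level. The genes named are the 10 macrophage genes, the called genes of 7 pathway lists or otherwise up to 3 of a list with the smallest adjusted p, and the 5 genes most like PLA2G7. Named beside these are C1QC, the red blood cell markers of the score and some fibroblast markers. Members and lists were chosen with earlier results of these data known. Alternatives covered scaling, background correction, the filter, slide, array weights, the probes of a gene, the red blood cell score and leaving out each array.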

Additional observations from a re-analysis of the deposited data

Results flagged for a closer look

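CD68 had 1 pig far from its group. F1 TN replicate 3 had a log2 level of 7.54 at the CD68 probe, the highest of its 4 pigs, and the nearest of the others was at 6.38. The gap was 0.856 of the group's range, above Dixon's 95% critical value for 4 samples. Of 50 pairs of gene and group tested this was the only one, and chance gives about 1 in 20. The Creole TN group, with 3 pigs, was not tested this way.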

How the results depend on the processing

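PLA2G7 stayed lower in HS in every fit run, from -0.48 to -0.39 when each pig was left out, and the call was lost only with the red blood cell score as a covariate (-0.37, adjusted p = 0.133), where 0 of the 10 genes were called in place of 1. Without 1 pig, 1 to 2 genes were called, the second being AIF1 without F1 HS replicate 2. Without the breed term 4 of the 6 PLA2G7 probes were called. In F1 against LW 1 gene, in place of 0, was called with array weights, the mean of all probes, processed intensities scaled to the 75th percentile and the filter on all arrays, and 0 to 1 when each pig was left out (1 without Creole HS replicates 4 or 5, F1 TN replicate 4, LW HS replicate 5 or LW TN replicate 2). CD163 turned to -0.042 with the mean of all probes, and CD68 to 0.0524 with array weights, 0.0241 with processed intensities at the 75th percentile, 0.0324 with the red blood cell score and 0.0239 with slide as a block. With 1 pig left out, C1QA ran from -0.016 to 0.16, CD163 from -0.0173 to 0.18 (both negative only without Creole TN replicate 2), CD68 from -0.105 to 0.0859, C1QB from 0.07 to 0.24, CD14 from 0.06 to 0.16, MRC1 from 0.12 to 0.28 (the lowest of each without that pig) and MSR1 from 0.09, without Creole HS replicate 3, to 0.21. SPP1 turned to 0.17 in F1 against LW and -0.33 in LW against Creole with the mean of all probes. With 1 pig left out, calls were lost in 7 of 26 fits for C5AR1, 6 for FCGR2B and 9 for SPP1 in HS against TN, in 7 for IL34 within LW pigs, in 9 for C3 and 6 each for CD36 and SCARB1 in LW against Creole, and in 7 for C1S, 6 for LIPA and 11 for SPP1 in F1 against LW. In the other settings, calls were also lost in F1 against LW for SPP1 with normexp (adjusted p = 0.0521) and no filter on dim probes (0.0534), and in LW against Creole for C1R and SPP1 without the temperature term (0.0851 and 0.0550), for C3 in 5 of 12 settings (up to 0.165), and for CD36 and SCARB1 with the mean of all probes (0.189 and 0.0655). The ratio of PLA2G7 to CD68 was the one of 9 ratios lost with processed in place of median intensities, scaled to the 75th percentile. PLA2G7 correlations passed for 4 pairs, in place of 0, with slide means removed. That permutation moved pigs between slides, so its p-values are likely too small and call no pair. The cause of these changes was not tested. No paired analysis was possible because the labels give neither the study's blocks of littermates nor replicate numbers that pair pigs across groups.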
